A study of Rattus norvegicus with 9 samples.

Results

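Respiratory complex I is the NADH dehydrogenase of the mitochondrial inner membrane. Its subunits were examined at the RNA level in the superior mesenteric artery (SMA), the large artery that supplies the gut. Members were all rows of the count table whose symbol starts with Nduf, then one of the letters a, b, c, s or v and a digit, so that the assembly factors (Ndufaf genes) were left out, together with the 7 ND subunits that the mitochondrial genome codes for. This gave 51 of 37203 rows, of which 44 were nuclear and 7 mitochondrial. The rule used gene names only and no measured value.

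The groups were Normal, Ischemia 1h and Ischemia 4h, with 3 Sprague-Dawley rats of 8 weeks and 220 to 240 g in each, and 9 libraries in all. Ischemia was produced by bleeding anaesthetised rats from the femoral artery, and the time counts from the end of that procedure, so the artery was exposed to low blood volume and not to a local occlusion. No genetic change and no agent beside the anaesthetic is named, and the labels do not say whether the Normal rats had a sham operation. Whole pieces of artery were taken, so each library holds RNA of smooth muscle, endothelium, nerve, fat and blood cells in unknown shares.

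Complex I takes electrons from NADH, passes them along a flavin and a chain of iron-sulfur clusters to ubiquinone, and couples this to the pumping of protons across the membrane. It is built in modules: the N module binds and oxidises NADH, the Q module reduces ubiquinone, and the proximal and distal membrane arms pump protons. The 14 core subunits do the catalysis and are split between 2 genomes, 7 in the nucleus and 7 in mitochondria, while the remaining subunits are accessory and hold the structure together. In ischemic tissue the complex is best known as a site where reactive oxygen species are formed.

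Total counts ran from 13114273 to 15504240 per library, and 15482 genes had enough counts to be tested. Smooth muscle markers were present in every library, with a summed level of 8 genes from 10412 to 65403 CPM (counts per 1000000 counts, scaled by the TMM method), so the tissue carried the defining markers of its label. The libraries differed in other cell types. The summed level of 15 sympathetic nerve genes ran from 35.3 to 597 CPM in Normal rats, from 869 to 7870.5 at 1 h and from 44.8 to 7698 at 4 h, and it was 7698 CPM or more in replicates 1 and 3 at 1 h and replicate 3 at 4 h. The 9 adipocyte genes summed to 303 to 1300.1 CPM, 358 to 1898 CPM and 306 to 746 CPM in the 3 groups, with Lep and Ucp1 at 0 in some library, and the 7 lymphocyte genes did not have enough counts to be tested. In such bulk samples fewer cells of a type and less RNA per cell cannot be told apart.

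Promoter sequences are shown first, because some of the nuclear members share letters there that their names do not imply. RefSeq promoters of the rat assembly GRCr8, each from 250 bases before to 50 bases after the gene start, matched 32 of the 36 nuclear members that were tested. Motifs of 4 kinds were searched on both strands of each 300-base window: GCGC, any base and then TGCGC for the respiratory factor NRF1, CCGGAAG for the ETS family (which includes GABP), AANATGGC for YY1, and ACGTG, the core of the hypoxia response element. The YY1 letters were present in 14 of the 32 members (43.8%), against 9.5% of 10358 promoters of tested genes and 7.4% of all 27457 promoters. The NRF1 letters were in 6 members (18.8%, against 9.3% of tested genes). The ETS letters were in 5 (15.6%, against 15.8%) and the hypoxia core in 8 (25%, against 24.5%), both near the share of tested genes. No 2 different motifs overlapped in a member, and 7 members held none of the 4. Of the 14 YY1 matches, 9 (64.3%) started after the gene start and 12 (85.7%) read on the strand of the gene, against 44.2% and 65.7% of the matches in tested genes. The letters contain ATG, and whether a match lies at the start of the coding sequence was not looked at.

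The 5 windows that follow, of the 14, are those of members at 5 CPM or more whose fitted change was among the 4 highest or the 4 lowest in a comparison. Each is 30 bases, written 5′ to 3′ on the strand of the gene, and capitals mark the YY1 letters or their reverse complement.
Ndufs4, chr2:47794892-47794921, minus strand: ttgcccacaggAAGATGGCggcggtctcaa
Ndufs7, chr7:10110476-10110505, minus strand: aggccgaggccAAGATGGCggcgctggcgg
Ndufa3, chr1:74515524-74515553, minus strand: tgtccaagaccAAGATGGCtgctagtaagt
Ndufs1, chr9:72073616-72073645, minus strand: tagccgtggccGCCATATTgacttagcggc
Ndufb10, chr10:14256135-14256164, minus strand: actcttgccaaGCCATGTTcactgcattcc
In Ndufs4, Ndufs7 and Ndufa3 the same 8 letters stand on the strand of the gene just after its start, while Ndufs1 and Ndufb10 hold a match to the pattern on the opposite strand before the start.

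Ndufa5, which had the highest fitted change of the nuclear members at 4 h, held 2 other motifs in the 250 bases before its start. In its promoter, shown next, the first capitals mark the hypoxia core ACGTG and the second the reverse complement of the NRF1 letters.
Ndufa5, chr4:53971236-53971485, minus strand: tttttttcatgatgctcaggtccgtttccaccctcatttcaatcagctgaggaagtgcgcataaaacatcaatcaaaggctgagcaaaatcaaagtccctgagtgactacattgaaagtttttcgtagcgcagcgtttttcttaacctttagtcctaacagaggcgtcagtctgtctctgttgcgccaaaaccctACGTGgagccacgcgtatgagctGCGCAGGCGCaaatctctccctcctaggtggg
The same 250 bases of Ndufs4 and Ndufc2, also looked at, held none of the 4 motifs. Over the 300-base windows the hypoxia core was absent from Ndufb6, Ndufb10 and Ndufc2, the next highest at 4 h. It was present in Ndufa3 and Ndufv3, which were fitted lower at 4 h. All of these are matches of letters and say nothing of whether a factor was bound in the artery.

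Most members were detected in every library, and the nuclear ones varied about as much as other genes. Of the 51 members, 43 passed the filter on low counts, 36 nuclear and all 7 mitochondrial. The 8 nuclear rows that did not pass were Ndufb4-ps1, Ndufb4l1, Ndufs5-ps1 and Ndufa7l, all with 0 counts in every library, Ndufv3-ps1, Ndufs6, Ndufa1 and Ndufa13. Ndufs6 belongs to the N module, Ndufa1 and Ndufa13 to the proximal arm, and each is part of the complete complex. The 9 libraries together held 10 counts of Ndufs6, 32 of Ndufa1 and 71 of Ndufa13. Near-identical copies of such genes can split reads, so these totals are uncertain as levels, and no fold change is given for them. Across the 34 nuclear members that averaged at least 5 CPM, the highest library stood 1.52 to 3.77 times above the lowest, with a median of 2.13, and the median over all tested genes of that level was 2.25. The mitochondrial members varied more, by 3.99 to 5.04 times for the 6 members other than ND6.

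Of the 43 members tested, 0 were called in any comparison (edgeR quasi-likelihood F-test, Benjamini-Hochberg adjusted p under 0.05 and a change of more than 1.5-fold). The share of all tested genes called was 0.0581% at 1 h, 0.0904% at 4 h, 0.0% between 4 h and 1 h and, at adjusted p under 0.05 over the 3 groups together, 0.0388%, so a list of this size would hold few calls in any case. At an unadjusted p under 0.05 there were 2 members at 1 h, both higher (background 7.98% up and 8.67% down), and 4 at 4 h, all higher (background 5.07% up and 7.35% down). Between 4 h and 1 h there were 0 (background 2.58%, of which 1.33% up and 1.25% down). The lowest adjusted p of a member was 0.285 at 1 h, 0.265 at 4 h and 0.856 between 4 h and 1 h. DESeq2 also called 0 members, with 2, 4 and 0 at an unadjusted p under 0.05, although it called 702 and 610 genes in all at 1 h and 4 h. The standard error of the fitted log2 fold change ran from 0.16 to 0.75 over the nuclear members and from 0.31 to 0.71 over the mitochondrial ones, so a change of the size fitted for most members could not be told from none with 3 rats a group.

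As a group the nuclear members were fitted slightly higher at 4 h, and at 1 h they were centred near 0. At 1 h, 20 of 36 were fitted above 0 (background 49.4%), with a median log2 fold change of 0.05 against -0.01 for all genes tested. At 4 h, 33 of 36 were fitted above 0 (background 52.3%), with a median of 0.28 against 0.03. Between 4 h and 1 h the median was 0.26 against -0.04, and 33 of 36 were again above 0 (background 46.4%). The members share libraries and are expressed together, so these counts are a description and not a test. The median of all genes moved to -0.15 at 4 h and -0.24 between 4 h and 1 h when libraries were scaled by their size alone. The nuclear median was then 0.12 at 4 h and 0.03 between 4 h and 1 h. For the latter it was 0.08 without replicate 1 at 4 h and 0.17 when replicate 2 at 1 h was left out. It was 0.41 when replicate 1 at 1 h or replicate 3 at 4 h was left out, and 0.09 and 0.10 with nerve or adipocyte genes as a covariate.

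The modules had similar medians. At 4 h the nuclear median was 0.29 over 9 N module genes, 0.27 over 6 Q module genes, 0.23 over 7 genes of the proximal arm and 0.32 over 11 genes of the distal arm. Every gene of the distal arm and of the Q module was fitted above 0, as were 8 in the N module and 6 in the proximal arm. At 1 h the same medians were 0.01, 0.12, 0.10 and 0.06. The rest of the respiratory chain had similar values: the 38 nuclear genes of complexes II to V had medians of 0.09 at 1 h and 0.34 at 4 h. The nuclear members made up 28.8% to 30.2% of all nuclear respiratory chain counts in every library, so their balance with the other complexes hardly varied.

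**Figure D1:**
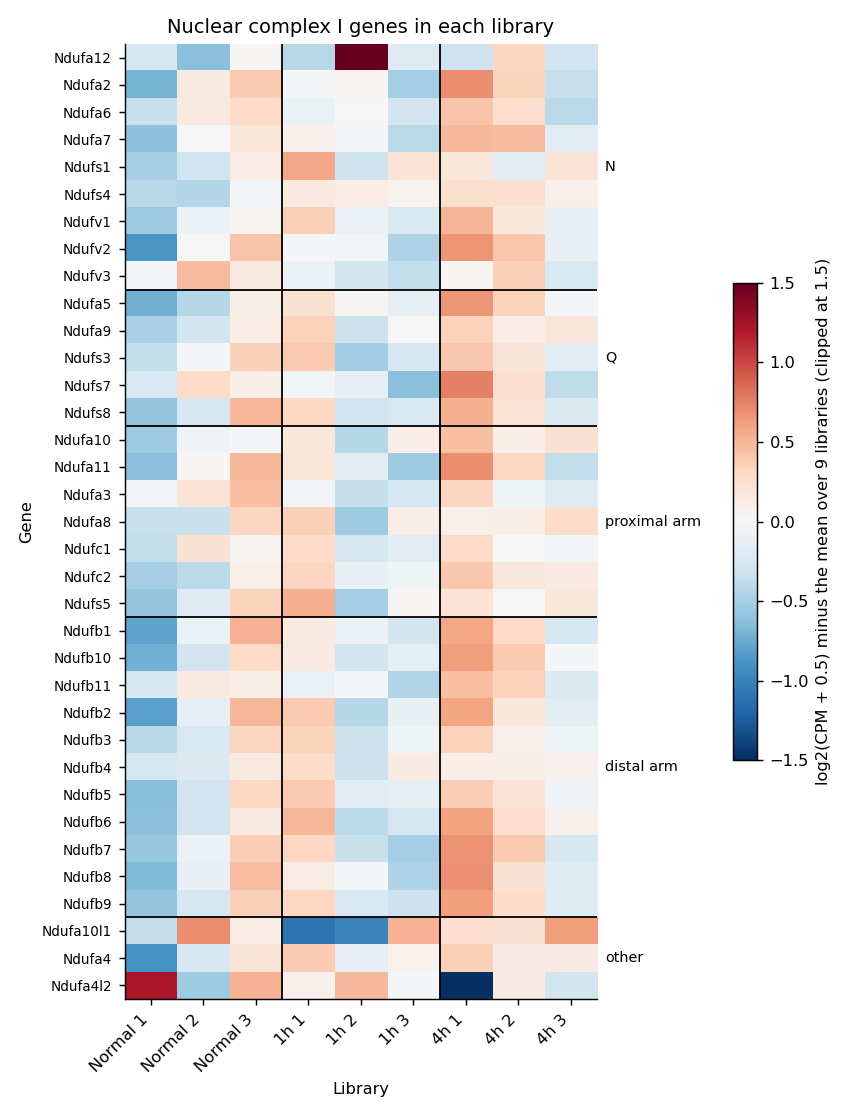
Level of 35 tested nuclear members in each of the 9 libraries, as log2(CPM + 0.5) minus the gene's mean over the libraries, with genes ordered by module and groups divided by black lines. Blue is below and red above the gene's mean, and Normal replicate 1 is the lowest library for 23 of these genes while replicate 1 at 4 h is the highest for 21.

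The size of this pattern depended on single libraries, and 2 of them were the extreme ones for most nuclear members. The summed level of the nuclear members was 1150.3, 1556 and 1902 CPM in Normal replicates 1 to 3, 1914, 1459 and 1464 CPM at 1 h, and 2245, 1918 and 1586 CPM at 4 h, so the groups overlapped. Normal replicate 1 was the lowest library for 24 of the 36 nuclear members (66.7%), against 13.3% of all genes tested. Replicate 1 at 4 h was the highest for 21 (58.3%), against 16.6% of all genes. Normal replicate 1 also had the lowest smooth muscle sum (10412 CPM), and replicate 1 at 4 h had the highest (65403 CPM). The part of this difference in the nuclear members was not tested. Without Normal replicate 1 the nuclear median was -0.14 at 1 h and 0.12 at 4 h. Without Normal replicate 3 it was 0.32 and 0.53, with 4 and 8 members at an unadjusted p under 0.05 (background 11.3% and 10.8% in that setting). Without replicate 1 at 4 h the 4 h median was 0.15, and 0 members had an unadjusted p under 0.05. This was also so at 4 h without replicate 2 at 4 h and, in both comparisons, without Normal replicate 2. Without replicate 3 at 4 h the nuclear median at 4 h was 0.46. Over all settings tried the nuclear median at 4 h lay between 0.12 and 0.53.

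**Figure D2:**
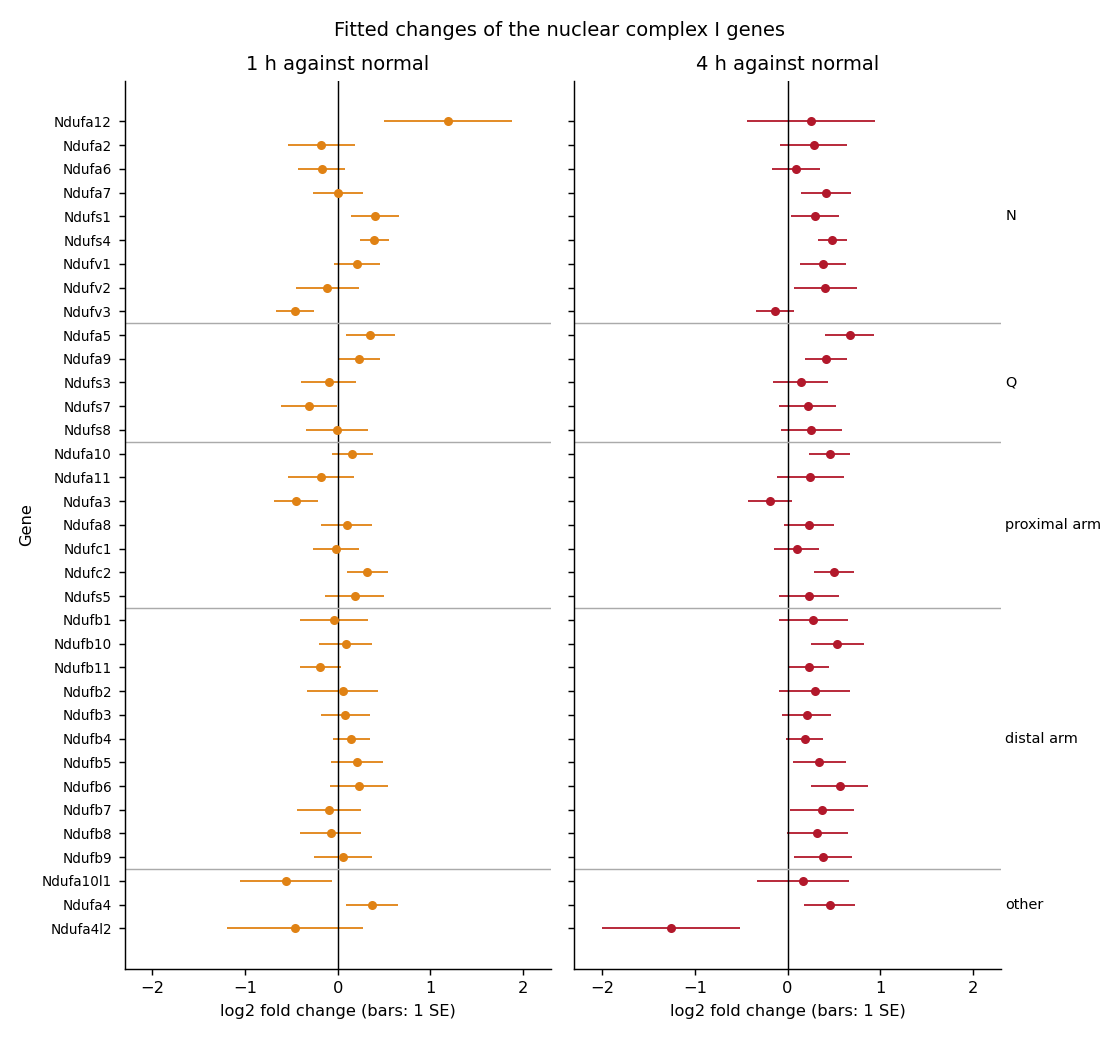
Fitted log2 fold change of 35 tested nuclear members against Normal at 1 h (left) and at 4 h (right), with bars of 1 standard error and genes ordered by module. At 4 h, 32 of 35 points lie above 0, and the bars are of a size similar to the changes.

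The nuclear core subunits carry the redox centres. Ndufv1, which binds NADH and the flavin, was at 78.3, 107.6 and 117 CPM in Normal rats, 145.8, 106.6 and 97.4 CPM at 1 h, and 162.5, 128.0 and 105.4 CPM at 4 h. Its log2 fold change was 0.21 (SE 0.25) at 1 h and 0.38 (SE 0.25) at 4 h, and the groups overlapped. Ndufv2, which holds an iron-sulfur cluster beside it, was at 52.5, 96.9 and 130.4 CPM in Normal rats, 95.5, 93.7 and 69.9 CPM at 1 h, and 153.0, 129.1 and 89.5 CPM at 4 h. Its spread among Normal rats was wider than any difference between group means. Ndufs1, the largest subunit of the N module, was at 48.5, 55.6 and 74.3 CPM in Normal rats, 101.9, 55.5 and 79.2 CPM at 1 h and 77.1, 61.7 and 79.5 CPM at 4 h. It had the highest fitted change of the nuclear members averaging at least 5 CPM at 1 h, 0.41 (SE 0.26, adjusted p = 0.405), and the only fitted value below 0 between 4 h and 1 h among them, -0.12 (SE 0.26), a sign that turned with nerve or adipocyte genes as a covariate. Its high mean at 1 h rested on replicate 1.

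In the Q module, Ndufs7, which carries the last iron-sulfur cluster before ubiquinone, was at 54.5, 78.2 and 68.2 CPM in Normal rats, 62.3, 58.6 and 41.2 CPM at 1 h, and 108, 76.3 and 49.0 CPM at 4 h. Replicate 3 was the lowest library at 1 h and at 4 h, and the values at 4 h ran from below the Normal group to above it. Ndufs7 was fitted lower at 1 h (-0.31, SE 0.30) and higher at 4 h (0.22, SE 0.30), and both signs turned under some setting. Ndufs3 and Ndufs8, a structural and an iron-sulfur subunit, ran from 23.9 to 45.7 CPM and from 23.0 to 50.1 CPM over the 9 libraries. Their fitted changes at 1 h were -0.10 (SE 0.30) and -0.0048 (SE 0.33), and at 4 h 0.14 (SE 0.30) and 0.26 (SE 0.33).

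Among accessory subunits Ndufs4 had the lowest p in both comparisons with Normal. Ndufs4 sits in the N module, is needed for a stable complex, and is a known disease gene of complex I deficiency. It was at 47.2, 46.6 and 61.4 CPM in Normal rats, 70.0, 68.6 and 65.8 CPM at 1 h, and 74.7, 75.6 and 66.8 CPM at 4 h. All 6 ischemic libraries stood above all 3 Normal libraries, where 12.8% of genes at 1 h and 7.93% at 4 h were higher without overlap. Its mean was 51.7 ± 8.38 CPM in Normal rats, 68.1 ± 2.15 at 1 h and 72.4 ± 4.83 at 4 h (SD, n = 3 each). The log2 fold changes were 0.40 (SE 0.16, adjusted p = 0.285) and 0.48 (SE 0.16, adjusted p = 0.265), so it was not called. Its unadjusted p was under 0.05 in 8 of 20 settings at 1 h and in 16 of 20 at 4 h, and its fitted change was above 0 in all of them.

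**Figure D3:**
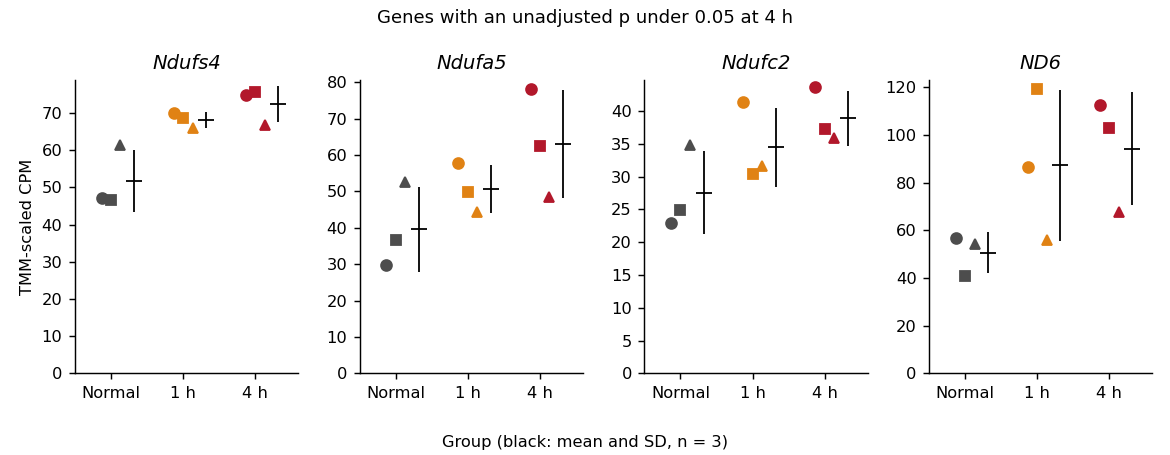
Level in TMM-scaled CPM of Ndufs4, Ndufa5, Ndufc2 and ND6 in each library, with 1 point a rat (circle, square and triangle for replicates 1 to 3) and the group mean and SD in black. Normal libraries lie below all libraries at 4 h for Ndufs4, Ndufc2 and ND6, while those of Ndufa5 overlap.

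Ndufa5, an accessory subunit of the Q module, was at 29.7, 36.6 and 52.5 CPM in Normal rats, 57.7, 49.7 and 44.4 CPM at 1 h, and 78.1, 62.4 and 48.3 CPM at 4 h. Its log2 fold change at 4 h was 0.67 (SE 0.26, unadjusted p = 0.0327 and adjusted p = 0.347 in edgeR), and the groups overlapped through Normal replicate 3. At 1 h it was 0.35 (SE 0.26). Ndufc2, an accessory subunit of the membrane arm, was at 23.0, 24.9 and 34.8 CPM in Normal rats and 43.7, 37.2 and 35.9 CPM at 4 h, without overlap but with the lowest ischemic value close to the highest Normal one. Its log2 fold change at 4 h was 0.50 (SE 0.22, adjusted p = 0.402), and its unadjusted p was under 0.05 in 5 of 20 settings.

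Ndufb6 and Ndufb10, both of the distal arm, completed the genes with the highest fitted changes at 4 h. Ndufb6 averaged 22.4 ± 6.0 CPM in Normal rats and 33.2 ± 6.48 CPM at 4 h, a fitted change of 0.56 on the log2 scale (SE 0.31, adjusted p = 0.498). Ndufb10 averaged 49.0 ± 17.8 and 71.1 ± 15.8 CPM, a fitted change of 0.54 (SE 0.29, adjusted p = 0.488; SD, n = 3 each). In both genes Normal replicate 3 stood above replicate 3 at 4 h. The remaining nuclear member without overlap at 4 h was Ndufa10, an accessory subunit of the proximal arm that was not among the highest or lowest changes and was picked out after its values were seen. It was at 51.6, 72.0 and 73.0 CPM in Normal rats and 102.7, 79.6 and 87.6 CPM at 4 h. Thus 3 nuclear members and ND6 stood higher without overlap at 4 h (background 7.93%) and 0 stood lower (background 10.8%).

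At 1 h 16 of the 36 nuclear members were fitted below 0, and at 4 h 3 were. Ndufv3, an accessory subunit of the N module, was at 77.3, 110.1 and 86.6 CPM in Normal rats, 73.6, 64.8 and 61.0 CPM at 1 h, and 81.1, 101 and 67.4 CPM at 4 h. At 1 h all its values were below Normal (log2 fold change -0.46, SE 0.21, adjusted p = 0.305), and at 4 h they overlapped (-0.13, SE 0.21). Ndufa3, of the proximal arm, showed the same order at a lower level, 11.1, 13.2 and 15.7 CPM in Normal rats, 11, 8.82 and 9.4 CPM at 1 h, and 14.4, 10.9 and 9.90 CPM at 4 h. Its log2 fold change was -0.45 (SE 0.24, adjusted p = 0.333) at 1 h and -0.19 (SE 0.23) at 4 h. These were the 2 nuclear members lower without overlap at 1 h (background 13.5%), and Ndufs4 was the 1 member higher (background 12.8%). Between 4 h and 1 h, 0 members were without overlap (background 3.2% higher and 3.04% lower). The highest fitted changes there, from 0.46 to 0.73, were those of Ndufa10l1, Ndufs7, Ndufv2 and Ndufb7, each with an adjusted p of 0.856.

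Some rows that carry the family name are not subunits of the complex in the usual sense. Ndufa4, now held to belong to complex IV, was at 55.5, 87.0 and 118 CPM in Normal rats, 135, 94.5 and 107 CPM at 1 h, and 132, 112 and 112 CPM at 4 h (log2 fold changes 0.37 and 0.45, SE 0.28 in both). The high Normal value again made the groups overlap. Ndufa4l2, its paralog and a known target of the hypoxia factor HIF-1, was low, at 4.65, 1.02 and 2.66 CPM in Normal rats, 1.81, 2.61 and 1.66 CPM at 1 h and 0.25, 1.91 and 1.32 CPM at 4 h. It was not fitted higher at 1 h (-0.46, SE 0.73) or at 4 h (-1.26, SE 0.75, adjusted p = 0.529). Ndufa10l1 was at 7.73, 16.6 and 10.9 CPM in Normal rats, 4.42, 4.81 and 14.7 CPM at 1 h, and 12.1, 11.9 and 15.7 CPM at 4 h, with a fitted change of -0.56 (SE 0.50) at 1 h, the lowest of the nuclear members. Without 1 library it ran from -1.37 (without replicate 3 at 1 h) to -0.24 (without Normal replicate 2), and between 4 h and 1 h from 0.44 to 1.54. RefSeq gives Ndufa10 among its older names, so its reads may be shared with that gene. A subunit proper, Ndufa12 of the N module, was picked out after its values were seen, and reached 7.69 CPM in replicate 2 of the 1 h group and lay between 1.10 and 2.57 CPM in every other library.

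The mitochondrially encoded members are transcribed in the organelle as long joint precursors. The 6 other than ND6 spanned a wider range within each group than the group means did. ND1, which forms part of the ubiquinone site in the membrane, was at 8902, 12488 and 22617 CPM in Normal rats, 14256, 10360.4 and 4576 CPM at 1 h, and 23074, 19936 and 6261 CPM at 4 h. Its log2 fold change was -0.59 (SE 0.71) at 1 h and 0.16 (SE 0.71) at 4 h, and each group spanned a wide range. ND2, ND4 and ND5, the subunits that pump protons, ran from 5819 to 24659 CPM, from 320.0 to 1276 CPM and from 3028 to 12446 CPM. ND3 and ND4L, smaller subunits of the proximal arm, ran from 515.9 to 2324 CPM and from 1501 to 7516 CPM. All 6 were lowest in replicate 3 at 1 h.

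**Figure D4:**
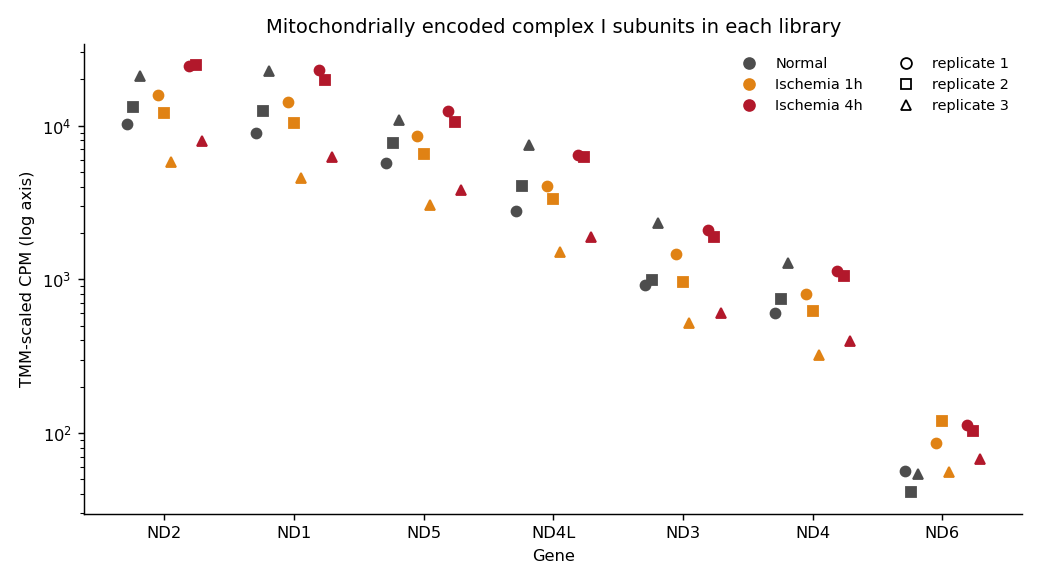
Level of the 7 mitochondrially encoded members in TMM-scaled CPM on a log axis, with 1 point a library, colours for the groups and shapes for replicates 1 to 3. Replicate 3 at 1 h and replicate 3 at 4 h (triangles) lie at the foot of their groups for every gene, whereas Normal replicate 3 is the highest Normal library for all but ND6.

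At 1 h the fitted log2 fold changes of these 6 members ran from -0.69 for ND4L to -0.40 for ND2, and at 4 h from -0.03 for ND4 to 0.35 for ND2, with standard errors of 0.51 to 0.71. Between 4 h and 1 h they ran from 0.56 to 0.76. Signs of most of these changes turned with single libraries or covariates: over the 20 settings the median of the 7 members ran from -0.89 to 0.15 at 1 h and from -0.21 to 0.62 at 4 h, and under scaling by library size alone the 4 h median was -0.07 in place of 0.14. The other 6 mitochondrially encoded proteins had medians of -0.54 at 1 h and 0.04 at 4 h, close to those of the ND genes. The ND genes held 20.2% to 24.1% of the counts of all 13 mitochondrial protein genes in every library. Their mutual proportions were also steady. ND1 held 28.9% to 34.4% of the ND counts and ND2 32% to 38.3%. The ratio of ND4L to ND4 counts lay between 4.6 and 5.95 in all 9 libraries. These 2 genes are carried on 1 joint messenger RNA, and ND4L codes for the smaller subunit. Its higher counts, which were not scaled by length, leave the CPM of both genes uncertain as levels. The part of mapping or counting in this ratio was not tested.

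The balance between the 2 genomes was therefore examined per library. The ND genes took 1.92% (replicate 3 at 1 h) to 5.93% (Normal replicate 3) of all counts, and the nuclear members 0.135% to 0.192%. The ratio of summed ND to summed nuclear counts was 25.4, 25.3 and 34.6 in Normal libraries. It was 23.6, 23.4 and 10.8 at 1 h and 31.0, 33.6 and 13.2 at 4 h. Both replicate 3 libraries after ischemia stood apart from the other 7, which lay between 23.4 and 34.6. On the log2 scale the mean ratio was 4.81 ± 0.26 in Normal rats, 4.18 ± 0.65 at 1 h and 4.58 ± 0.75 at 4 h (SD, n = 3 each). The differences between group means were within the spread of the ischemic groups. Without replicate 3 the mean was 4.55 at 1 h and 5.01 at 4 h.

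**Figure D5:**
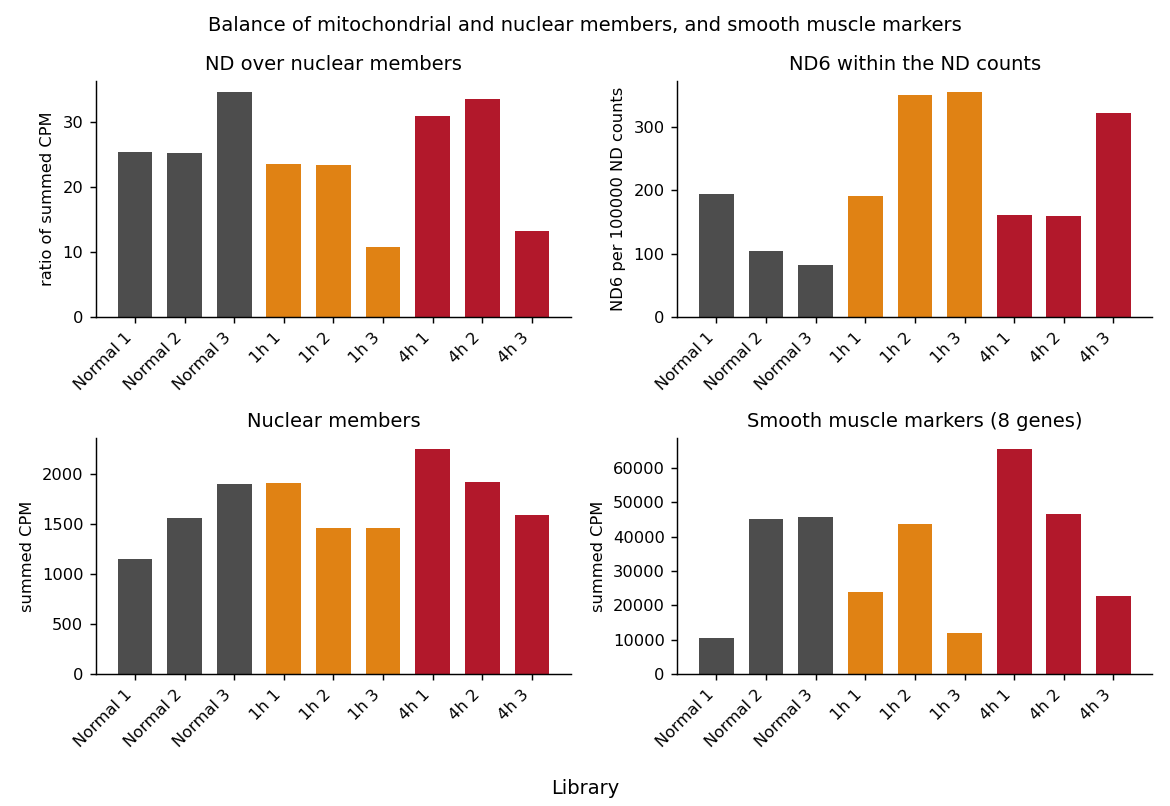
For each library, the ratio of summed ND to summed nuclear member levels (upper left), ND6 per 100000 counts of all ND genes (upper right), the summed CPM of the nuclear members (lower left) and the summed CPM of 8 smooth muscle markers (lower right), with bars coloured by group. The ratio is 10.8 and 13.2 in replicate 3 at 1 h and at 4 h and at least 23.4 in the others.

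The same 2 libraries had the lowest share of counts from the mitochondrial genome, 9.37% and 11.3% against 15.5% to 29.8% in the others, and high nerve sums, 7870.5 and 7698 CPM. Replicate 1 at 1 h, however, had a nerve sum of 7833 CPM with a ratio of 23.6 and a mitochondrial share of 22.0%. Smooth muscle sums were 11930 and 22756 CPM in those 2 libraries, and the sum of Normal replicate 1 was lower still with a ratio of 25.4. All nerve sums at 1 h (869 to 7870.5 CPM) lay above those of Normal rats (35.3 to 597 CPM). A nerve covariate can therefore not be told apart from the group at 1 h. With the nerve genes as a covariate the ND median was 0.05 at 1 h and -0.02 at 4 h, and with the adipocyte genes it was 0.15 and 0.22. Without both replicate 3 libraries, a choice made after the data were seen, it was -0.25 and 0.51, and 0 members were called. The part of cell makeup or RNA handling in the ratio was not tested.

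ND6 departed from the other ND genes. It is the one protein gene on the light strand of the mitochondrial genome, and its product is a membrane subunit of the proximal arm. ND6 was at 56.9, 41.0 and 54.1 CPM in Normal rats, 86.5, 119 and 56.0 CPM at 1 h, and 112, 103 and 67.6 CPM at 4 h. Every library at 4 h stood above Normal, and at 1 h replicate 3 overlapped. Its mean was 50.7 ± 8.48, 87.2 ± 31.6 and 94.3 ± 23.6 CPM (SD, n = 3 each). The log2 fold change was 0.78 (SE 0.31, adjusted p = 0.285) at 1 h and 0.90 (SE 0.31, adjusted p = 0.296) at 4 h, not called, with an unadjusted p under 0.05 in 16 and 17 of 20 settings and a value above 0 in every one.

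Within the ND counts, ND6 made up 195, 104 and 82.3 per 100000 in Normal libraries. It made up 191, 350 and 354 at 1 h, and 161, 160 and 322 at 4 h. The groups overlapped through Normal replicate 1. The share was highest in replicates 2 and 3 at 1 h and replicate 3 at 4 h, and the replicate 3 libraries were also those with the fewest ND counts. Whether counting used the strand is not given in the sources used here, so reads of ND6 cannot be told from reads of the heavy strand transcript that runs opposite to it.

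The assembly factors, which build the complex but do not stay in it, had medians below 0. Of the 19 on the list 17 were in the table and tested, with medians of -0.11 at 1 h and -0.14 at 4 h, 0 called, and 1 at an unadjusted p under 0.05 in each comparison (background 16.7% and 12.4%). That gene was Dmac2, listed under its older symbol Atp5sl, a factor of the distal membrane arm. Its mean was 34.3 ± 4.67 CPM in Normal rats, 24.1 ± 1.65 CPM at 1 h and 25.4 ± 3.42 CPM at 4 h (SD, n = 3 each), without overlap in either comparison (background 13.5% and 10.8% lower; log2 fold changes -0.51 and -0.44, SE 0.18 in both, adjusted p = 0.262 and 0.375). Lyrm2, which acts on the N module, had the lowest fitted change at 1 h (-0.66, SE 0.32, adjusted p = 0.321), and Dmac1, listed as Tmem261, was at -0.29 (SE 0.35) at 4 h. Fitted changes above 0 were 0.39 (SE 0.32) for Ndufaf1 and 0.25 (SE 0.37) for Ndufaf7 at 1 h, and 0.30 (SE 0.26) for Ndufaf2 and 0.27 (SE 0.26) for Ndufaf4 at 4 h. Between 4 h and 1 h the named factors were Ndufaf7 (-0.45, SE 0.37), Ndufaf1 (-0.42, SE 0.32), Lyrm2 (0.44, SE 0.32) and Ndufaf3 (0.31, SE 0.23).

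Genes that express mitochondrial DNA or drive mitochondrial biogenesis were the last group. Of 32 tested, 0 were called. At 1 h 1 was fitted higher and 4 lower with an unadjusted p under 0.05, and at 4 h 1 higher and 3 lower (background 16.7% and 12.4% in either direction), with medians of -0.15 and -0.07. Mterf, a mitochondrial transcription termination factor, was at 11.5 ± 1.57 CPM in Normal rats, 5.14 ± 0.87 at 1 h and 4.66 ± 2.27 at 4 h (SD, n = 3 each), without overlap. Its log2 fold changes were -1.15 (SE 0.37, adjusted p = 0.239) and -1.30 (SE 0.37, adjusted p = 0.215). Polg, the mitochondrial DNA polymerase, was at 35.1 ± 5.88 CPM in Normal rats, 26.1 ± 1.34 at 1 h and 22.4 ± 1.72 at 4 h (SD, n = 3 each), and its change at 4 h was -0.65 (SE 0.17, adjusted p = 0.188). Of the settings tried, only DESeq2 put them past the threshold at 4 h, with an adjusted p of 0.0387 and 0.0364.

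Higher fitted values were those of Fastkd2, an RNA-binding protein of mitochondrial granules, at 1 h (0.97, SE 0.34, adjusted p = 0.265) and 4 h (0.72, SE 0.34), of Pprc1, a coactivator of biogenesis, at 1 h (0.59, SE 0.29), and of Mterfd2, a factor of the mitochondrial ribosome, at 4 h (0.73, SE 0.24, adjusted p = 0.268). Esrra, a nuclear receptor that drives respiratory genes, was fitted lower at 1 h (-0.68, SE 0.30, adjusted p = 0.303). Between 4 h and 1 h the named genes were Trmt10c (-0.74, SE 0.27) and Slirp (0.54, SE 0.30), which process and stabilise mitochondrial RNA, Ppargc1a (-0.67, SE 0.42), the main coactivator of biogenesis, and Mterfd2 (0.50, SE 0.24), each with an adjusted p of 0.856.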

How the data were processed

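RNA of 9 rat arteries (3 per group) was extracted with Trizol and prepared for sequencing by a standard Illumina protocol. The authors deposited raw counts per gene symbol. HISAT2 is named in the submitters' processing notes, while the study's methods describe arrays, a log2 ratio and another mapping program. The build, the annotation, the counting program and the use of strand are not given in the sources used here, so no gene coordinates of the counts are printed. Promoters and names came from RefSeq (GRCr8), where 43 of the 44 nuclear symbols matched.

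Genes were filtered with filterByExpr, scaled by TMM and tested with the quasi-likelihood F-test of edgeR 4.0.16 in R 4.3.3, on all 9 libraries with group as the only term and p-values adjusted over all 15482 genes. CPM use TMM-scaled library sizes. SE is the log2 fold change divided by the square root of F. Depth, 13114273 to 15504240 counts, sets counting error only, and p-values measure the spread between these 9 samples, taken as separate rats. The fits were tested on simulated counts for 4 h against Normal, with 200 of the genes made to differ, in 3 simulations per size of change. When the simulated levels differed 2 times, 0% of the altered genes were recovered. The share rose to 24.8% where they differed 4 times, and to 66.2% where they differed 8 times. The altered genes were drawn from all genes tested and not from the members. The lack of called members therefore leaves changes of 2 times or less undecided. Larger changes are not excluded either, since most genes altered 4 times and some altered 8 times were also missed. No library was a copy of another (lowest chi-square per degree of freedom 29.9). Alternatives were relative log expression factors (RLE), library size alone, library sizes without mitochondrial counts, no filter, DESeq2 1.42.0, only the groups compared, a replicate block, nerve or adipocyte scores as covariates and 9 fits without 1 library. A line of the methods may be read as the same rats serving all conditions. The study also states that rats were killed at the end of ischemia, before the artery was taken. The same rat could thus not give arteries at both 1 h and 4 h. The labels name no pairs, and the replicate numbers were not taken as pairs, since same-numbered libraries did not all deviate together.

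Values are given for the core subunits (1 is not reported here), Ndufa4, Ndufa4l2 and, per contrast, the nuclear members at 5 CPM or more that had the 4 highest and the 4 lowest fitted changes. Of assembly factors and mitochondrial DNA expression genes, up to 2 each were named by the same rule. Members, lists and motifs were chosen with earlier results of these data known.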

Additional observations from a re-analysis of the deposited data

How the results depend on the processing

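All 4 counts of called members (3 contrasts and the test of any group difference) were 0 in every setting in which they were fitted, 20 at most. Over all genes 9 were called at 1 h and 14 at 4 h. These counts were 702 and 610 with DESeq2, 15 and 122 with the nerve score, 34 and 133 with the adipocyte score and 4 and 4 with only the groups compared, and without 1 library they ran from 0 to 11 and from 1 to 14. With the replicate block 0 members were called, with 1 at 1 h and 2 at 4 h at an unadjusted p under 0.05, and 7, 7 and 0 genes were called in all. Correlations of the deviations of same-numbered libraries were mixed, from -0.651 to 0.66, so the numbers were not taken as pairs. With only the core subunits the log2 ratio of ND to nuclear counts was 6.45, 5.80 and 6.23 in the 3 groups, since fewer nuclear genes enter the sum. Without Normal replicate 3 the members at an unadjusted p under 0.05 were 4 at 1 h and 8 at 4 h. DESeq2 called Mterf (-1.28) and Polg (-0.64) at 4 h. The 8 members under the count filter have no fitted value.

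Of 82 named changes 50 kept their sign in every setting. The other 32 turned in at least 1, none of them called, and the cause was not tested. Nerve sums at 1 h did not overlap those of Normal rats, so the nerve score goes with the group in that comparison. With the nerve score the log2 fold changes were, at 1 h, 0.054 for ND1, 0.20 for ND2, 0.20 for ND5, -0.021 for Ndufaf1, -0.16 for Ndufaf7, 0.015 for Ndufs3, 0.16 for Ndufs7, 0.14 for Ndufs8 and 0.23 for Ndufv2. At 4 h they were -0.022 for ND1, -0.073 for ND3, -0.16 for ND4L and -0.00060 for ND5. From 1 h to 4 h they were -0.019 for Lyrm2, -0.076 for ND1, -0.0072 for ND2, -0.055 for ND3, -0.085 for ND4, -0.12 for ND4L, -0.20 for ND5, -0.16 for ND6, -0.013 for Ndufaf3, 0.069 for Ndufs1 and -0.029 for Ndufv1. With the adipocyte score they were, at 1 h, 0.15 for ND1, 0.20 for ND2, 0.12 for ND3, 0.10 for ND4L, 0.18 for ND5, -0.040 for Ndufaf1, -0.11 for Ndufaf7, 0.068 for Ndufs7, 0.25 for Ndufs8 and 0.42 for Ndufv2. At 4 h the value was 0.067 for ND4, and between 4 h and 1 h -0.11 for ND6, -0.013 for Ndufa4 and 0.018 for Ndufs1. With library size alone they were 0.066 for Ndufs8 at 1 h, -0.037 for ND1, -0.089 for ND3, -0.17 for ND4L, -0.073 for ND5 and -0.030 for Ndufs3 at 4 h, and -0.089 for ND6, -0.13 for Ndufa4 and -0.040 for Ndufv1 between 4 h and 1 h. With the replicate block, where pairing was not shown, they were -0.077 for ND1, -0.070 for ND3, -0.18 for ND4L and -0.079 for ND5 at 4 h. Without both ischemic replicate 3 libraries they were 0.060 for Ndufs8 and 0.0010 for Ndufv2 at 1 h, and 0.32 for ND4 and 0.0096 for Ndufv3 at 4 h, with 0.47 for Ndufs7 there. Ndufs8 at 1 h was 0.0064 with RLE, 0.00050 without the filter and 0.0068 with DESeq2. Leaving out each library in turn gave, at 1 h, -0.94 to 0.029 for ND3, -0.85 to 0.14 for Ndufa4l2, -0.072 to 0.57 for Ndufaf7, -0.41 to 0.11 for Ndufs3, -0.23 to 0.37 for Ndufs8 and -0.40 to 0.21 for Ndufv2. At 4 h it gave -0.20 to 0.62 for ND1, -0.23 to 0.67 for ND3, -0.31 to 0.35 for ND4, -0.28 to 0.51 for ND4L, -0.21 to 0.50 for ND5, -0.029 to 0.35 for Ndufs3, -0.12 to 0.46 for Ndufs7 and -0.30 to 0.032 for Ndufv3. From 1 h to 4 h it gave -0.10 to 0.41 for ND6, -0.026 to 0.24 for Ndufa4, -0.31 to 0.11 for Ndufs1 and -0.024 to 0.37 for Ndufv1.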

Other observations

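Most tested tRNA genes and the large ribosomal RNA of the mitochondrial genome had values unlike those of most ND messenger RNAs. They were picked out after they were seen. The tRNA genes Trnm and Trnt and the small ribosomal RNA had fitted changes close to those of the ND genes. The table lists 22 mitochondrial tRNA genes, of which 2 had 0 counts throughout and 13 had enough counts to be tested. Their median log2 fold change was 1.78 at 1 h and 2.57 at 4 h, and 7 and 9 of them had an unadjusted p under 0.05, with 0 called (edgeR). Beside these, 16.7% and 12.4% of all tested genes had an unadjusted p under 0.05. Summed tRNA counts per 100000 ND counts came to 134, 136 and 142 in Normal libraries. They came to 346, 244 and 238 at 1 h and to 384, 294 and 301 at 4 h, so that all 6 ischemic libraries stood above all 3 Normal ones. The summed ND level in the divisor itself averaged 44790.5 CPM in Normal rats, 31698 at 1 h and 51681 at 4 h. No share over other ratios was taken for this ratio or for that of Rnr2 below. In CPM, 6 of the 13 tRNA genes at 1 h and 9 at 4 h were higher without overlap (background 12.8% and 7.93%).

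Trnp, the proline tRNA on the light strand, was at 0.73, 0.36 and 0.30 CPM in Normal rats, 4.68, 3.54 and 1.72 CPM at 1 h, and 11.2, 6.63 and 2.91 CPM at 4 h (log2 fold changes 2.80, SE 0.65, adjusted p = 0.188, and 3.86, SE 0.67, adjusted p = 0.0722). Trnl1 was at 4.37, 5.91 and 4.58 CPM in Normal rats, 49.6, 16.4 and 5.04 CPM at 1 h, and 106.7, 82.7 and 15.0 CPM at 4 h, with an adjusted p of 0.285 and 0.169. Trnm behaved otherwise, with 21.2, 35.5 and 79.2 CPM in Normal rats, 44.0, 35.6 and 17.8 CPM at 1 h, and 75.2, 49.8 and 23.8 CPM at 4 h, in the order of the ND genes. Most tRNA genes rest on few counts, 4 to 136 per library for Trnp.

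The large ribosomal RNA Rnr2 held 6.16, 3.29 and 4.75 counts per 100 ND counts in Normal libraries. The values were 10.3, 8.07 and 9.64 at 1 h and 9.87, 12.5 and 15.4 at 4 h, again without overlap. Its own log2 fold change was 0.52 (SE 0.57) at 1 h, where its CPM overlapped Normal, and 1.55 (SE 0.58, adjusted p = 0.332) at 4 h. The small ribosomal RNA Rnr1, made from the same precursor, was at -0.38 (SE 0.50) and 0.06 (SE 0.50). How the library protocol and the size of the fragments treated such short or structured RNAs is not given in the sources used here, and its part in these values was not tested.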
